A study of Rattus norvegicus with 12 samples.

Results

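Liver of rats fed a high-fat emulsion for 6 weeks was compared with liver after 2 weeks of the same feeding. The comparison used 6 of the 12 arrays of the study, namely the 3 arrays labelled 6w and the 3 labelled 2w, and every probe set except the array controls. The 3 arrays of normal liver at 0h took no part, and the 3 arrays at 4 weeks are given beside the results without entering the test. All groups were Sprague-Dawley rats that the labels give as 12 weeks old. Biotin-labelled total RNA of the right liver lobe was hybridised to Affymetrix rat genome arrays. Both groups compared had received the emulsion, which was given to produce a nonalcoholic fatty liver. No array used here came from unfed rats kept for the same weeks, so weeks of feeding, elapsed time and the animals chosen for each group cannot be told apart. The labels call the 3 arrays of a group technical replicates, and no source used here gives the number of rats behind them. The p-values below therefore measure the spread between these arrays, which may be technical.

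A liver that takes up more fat than it burns or exports stores it as triglyceride in lipid droplets. Sterol regulatory element binding proteins switch on cholesterol and fatty acid synthesis when sterols are low or insulin is high, and cholesterol leaves the liver largely as bile acids made from it. Resident macrophages, called Kupffer cells, lie in the sinusoids among endothelial and stellate cells, and lymphocytes can enter the tissue. Interferon gamma, a product of T and NK cells, raises the genes for antigen presentation: class II molecules (RT1-B and RT1-D in the rat) show peptides to helper T cells, and class I molecules show peptides cut by the immunoproteasome to cytotoxic T cells.

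Promoters are shown for class II genes and interferon gamma induced genes with higher signals at 6 weeks, because these genes moved together. The 6 windows shown are among those that held matches to the letters of a known motif. The windows run from 250 bases before to 50 bases after the annotated start and come from RefSeq, build GRCr8. Capitals in the first 4 mark the Y box TGATTGG or its reverse complement, a class II promoter element bound by NF-Y. In the other 2 they mark matches to TTCNNNGAA, the pattern of the interferon gamma activated site, which reads the same on both strands. The match in Cxcl9 lies after the annotated start, and whether any match is a working element was not tested. The class II windows are RT1-Ba (chr20:4576807-4577106, plus strand), RT1-Bb (chr20:4604069-4604368, minus strand), RT1-Da (chr20:4515165-4515464, plus strand) and RT1-Db1 (chr20:4560113-4560412, minus strand). The other windows are Cxcl9 (chr14:16006916-16007215, plus strand) and Igtp (chr10:42874797-42875096, plus strand).
RT1-Ba: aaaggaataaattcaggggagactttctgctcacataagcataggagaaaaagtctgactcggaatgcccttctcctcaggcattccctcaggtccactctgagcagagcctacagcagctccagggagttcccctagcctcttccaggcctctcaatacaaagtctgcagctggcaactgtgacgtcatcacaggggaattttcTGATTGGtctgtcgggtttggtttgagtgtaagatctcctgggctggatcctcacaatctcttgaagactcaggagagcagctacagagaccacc
RT1-Bb: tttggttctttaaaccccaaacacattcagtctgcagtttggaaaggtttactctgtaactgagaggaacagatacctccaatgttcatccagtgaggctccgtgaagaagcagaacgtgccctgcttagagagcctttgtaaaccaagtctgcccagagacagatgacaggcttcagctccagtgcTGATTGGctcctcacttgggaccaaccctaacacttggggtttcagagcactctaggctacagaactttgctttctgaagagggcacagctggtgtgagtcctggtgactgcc
RT1-Da: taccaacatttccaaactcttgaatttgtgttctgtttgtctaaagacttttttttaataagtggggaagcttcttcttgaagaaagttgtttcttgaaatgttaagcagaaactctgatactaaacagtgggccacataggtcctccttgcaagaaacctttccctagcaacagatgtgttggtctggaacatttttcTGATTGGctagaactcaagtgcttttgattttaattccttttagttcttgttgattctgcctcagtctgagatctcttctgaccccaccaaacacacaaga
RT1-Db1: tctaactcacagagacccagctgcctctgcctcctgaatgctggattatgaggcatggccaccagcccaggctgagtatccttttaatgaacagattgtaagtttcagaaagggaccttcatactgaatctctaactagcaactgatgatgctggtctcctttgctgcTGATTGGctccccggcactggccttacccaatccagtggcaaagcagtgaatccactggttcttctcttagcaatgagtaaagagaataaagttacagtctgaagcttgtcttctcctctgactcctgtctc
Cxcl9: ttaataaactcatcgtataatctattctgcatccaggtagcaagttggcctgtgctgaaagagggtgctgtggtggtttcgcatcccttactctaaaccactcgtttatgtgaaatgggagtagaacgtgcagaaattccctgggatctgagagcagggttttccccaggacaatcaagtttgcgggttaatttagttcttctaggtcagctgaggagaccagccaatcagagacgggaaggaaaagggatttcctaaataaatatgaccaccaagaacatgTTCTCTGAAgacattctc
Igtp: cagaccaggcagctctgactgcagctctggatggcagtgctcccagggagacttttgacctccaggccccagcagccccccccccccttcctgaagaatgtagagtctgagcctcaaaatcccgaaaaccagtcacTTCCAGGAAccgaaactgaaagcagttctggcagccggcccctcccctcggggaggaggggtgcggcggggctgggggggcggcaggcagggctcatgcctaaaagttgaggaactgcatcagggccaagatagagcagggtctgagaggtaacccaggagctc

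The Y box lay in 4 of the 5 class II promoters searched, starting at position -45 from the annotated start in RT1-Ba, -63 in RT1-Bb, -51 in RT1-Da and -82 in RT1-Db1. The window of Cd74 held none. Of all 33469 promoter windows, 7.06% held these letters. They were counted in the class II windows only, yet other windows read here hold them too, without capitals. Among these are Cxcl9, Cxcl10 and Psmb9, which rose, and the cholesterol synthesis genes Hmgcs1, Idi1 and Fdps, which fell. The letters are therefore not particular to the class II genes. The letters were taken up after the sequences had been read. A first search with the shorter CCAAT, which the Y box contains on its other strand, found it in 5 of 5 windows against 37.5% of all windows. The interferon gamma activated site lay in 3 of 6 windows, those of Cxcl9 at 32, Igtp at -114 and Irf1 at -142, against 8.87% of all windows, and the windows of Gbp2, Cxcl10 and Psmb9 held none. For cholesterol synthesis genes lower at 6 weeks, the letters CACCCCA, part of a sterol regulatory element, were found in 3 of 12 windows (Acat2, Ebp and Tm7sf2) against 6.93% of all windows. These counts describe letters in a window and say nothing of binding.

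Of 31042 probe sets, 769 were higher and 916 lower at 6 weeks at an adjusted p under 0.05 (limma with a prior variance that follows the mean signal, 4 residual degrees of freedom, Benjamini-Hochberg over all probe sets), or 2.48% and 2.95% of those tested (5.43% together). These counts rest on that variance trend: without it only 86 probe sets were higher and 75 lower, 151 of them among those called with it. Leaving out 1 array at a time gave 452 to 655 higher and 507 to 794 lower. Most changes were moderate, with a median absolute log2 difference of 0.48 among called probe sets, and 116 were at least 2-fold higher and 131 at least 2-fold lower. On the level of genes, with each represented by its brightest probe set, 505 of 13879 were higher (3.64%) and 622 lower (4.48%), or 8.12% in either direction, around a median log2 difference of 0.0023. Groups that did not overlap were found in 3785 genes, or 27.3%. Values in brackets and amounts by which a gene rose or fell are log2 differences, those after ± are their standard errors, and n is 3 arrays per group throughout. These shares are the background against which the counts of each gene group below are read.

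**Figure D1:**
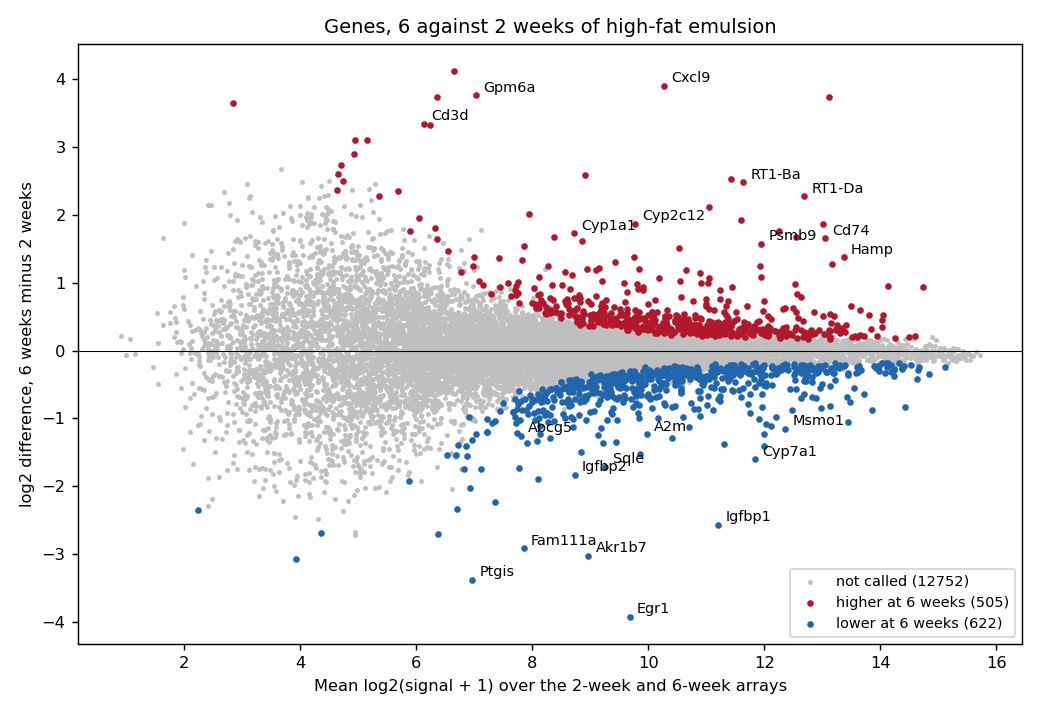
The log2 difference between 6 and 2 weeks (y axis) is plotted against the mean log2(signal + 1) over the 6 arrays (x axis), with 1 point for each of 13879 genes. Red points are the 505 genes called higher at 6 weeks and blue points the 622 called lower, and the scatter widens toward low signals.

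The arrays resembled each other within groups slightly more than between them. Correlations across probe sets above the background level were 0.966 to 0.972 between arrays of a group and 0.955 to 0.963 between 2-week and 6-week arrays. The median SD between arrays of a group was 0.30 on the log2 scale, and 0.11 for probe sets with a mean above 8. Every array had a trimmed mean signal of 500.2 to 500.3, and the background level, the 30th percentile of an array's signals, was 45.5 to 54.0. The log2 ratio of the 3′ to the 5′ GAPDH control, which rises as RNA degrades, was 0.47 ± 0.03 (SD, n = 3) at 2 weeks and 0.33 ± 0.04 at 6 weeks, without overlap (exact two-sided permutation test, p = 0.1, the smallest that 3 against 3 can give). That of actin was 1.42 ± 0.12 and 1.44 ± 0.07 (exact permutation test, p = 0.9). The part of this difference in the results was not tested. Of 23 hepatocyte markers none was under the background level on all 6 arrays, and their summed signal was 498489.8 to 533851 on the 2-week arrays and 461213 to 532733 on the 6-week arrays, so markers of the labelled tissue were present.

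Of the 154 called genes that the naming rule chose, 48 kept the call without the variance trend and 106 lost it. The 48 were Cxcl9, Gpm6a, Nudt11, Cd2, RT1-N3, RT1-Ba, RT1-Bb, RT1-Da, RT1-Db1, Cd74, RT1-A3, Psmb9, Psmb10, Igtp, Gbp2, Ifit1, Rsad2, Irf7, Ccl5, Sqle, Msmo1, Hmgcs1, Idi1, Insig1, Cyp7a1, Elovl6, Igfbp1, Igfbp2, Hamp, Tfrc, A2m, Cyp1a1, Cyp3a9, Cyp2c12, Dhrs7, Akr1b7, Noct, Egr1, Fam111a, Abp10, Alox15, Lama2, Lox, Col1a2, Col3a1, Cd163, Stab2 and S100a9. Each called gene described below that is absent from this list lost its call without the trend or, where it was no named gene, was not followed through the alternatives. Of the called genes, 43 had further, dimmer probe sets, 60 in all, of which 23 were called in the same direction, 2 in the opposite one (RT1-A3 and Dhrs7) and 35 not, 13 of these with a mean log2 signal above 8.

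**Figure D2:**
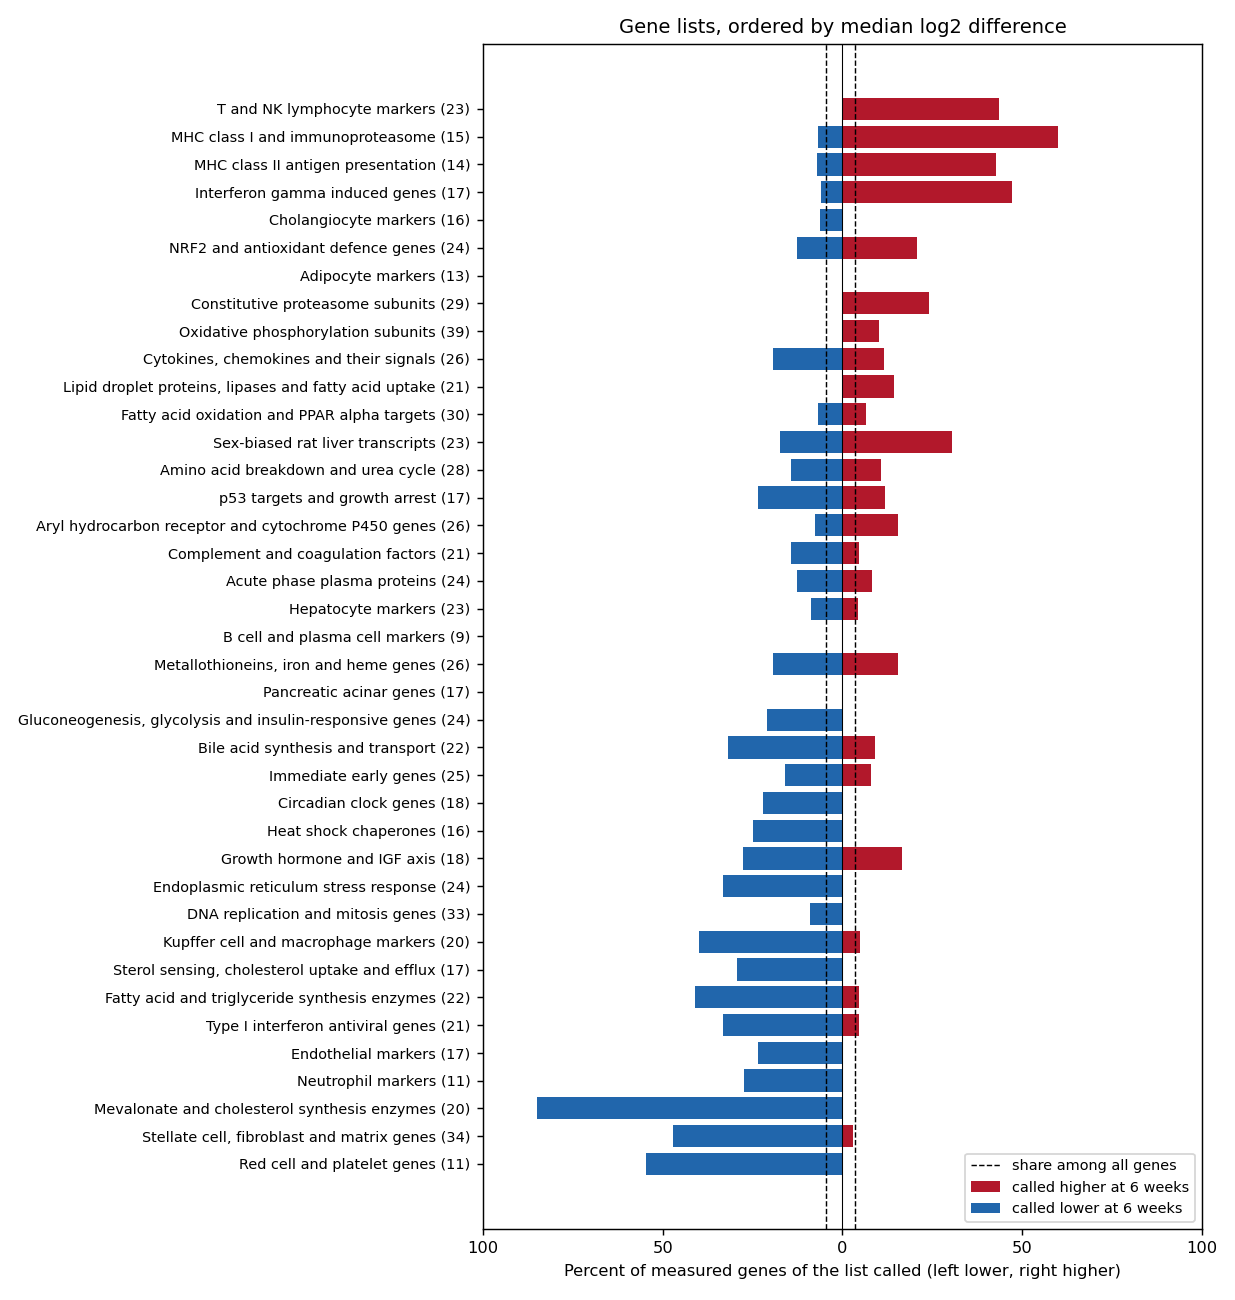
Bars give the percent of the measured genes of each of 39 gene lists (number measured in brackets) called higher at 6 weeks (right, red) or lower (left, blue), ordered by the median log2 difference. Dashed lines mark the shares among all genes, 3.64% higher and 4.48% lower; T and NK lymphocyte markers stand at the top and red cell and platelet genes at the bottom.

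The chains of the class II antigen presenting molecules were several-fold higher at 6 weeks. RT1-Ba, the alpha chain of RT1-B, had signals of 1340.3, 1334 and 1369 at 2 weeks and 7718, 7453 and 7336 at 6 weeks, a 5.56-fold rise (log2 difference 2.48 ± 0.05, adjusted p = 9.15e-10). Its 3 dimmer probe sets were not called, with log2 differences of 1.24 (adjusted p = 0.068), 0.14 and 0.61. Its partner RT1-Bb had 1199, 1124 and 1108 at 2 weeks and 6857, 6311 and 6505 at 6 weeks (2.52 ± 0.06, adjusted p = 2.09e-09), and a dim second probe set was not called (0.92). RT1-Da, the alpha chain of RT1-D, had 3017, 3022 and 2951 at 2 weeks and 14898, 14190.4 and 14296 at 6 weeks (2.27 ± 0.04, adjusted p = 9.15e-10). Its beta chain RT1-Db1 had 1158, 993 and 911 at 2 weeks and 4594, 4229.7 and 4351 at 6 weeks (2.11 ± 0.08, adjusted p = 1.64e-07). In each of these 4 chains the groups were far apart, every 6-week array lying above every 2-week array. Cd74, the invariant chain that guards the class II groove, had 4870.1, 4729.6 and 4686 at 2 weeks and 16404, 14729 and 13792 at 6 weeks (1.65 ± 0.06, adjusted p = 1.19e-07). All 5 were lower at 4 than at 2 weeks; Cd74, for example, stood at 3598, 3446 and 2833 at 4 weeks. Of 14 measured genes of the list, 6 rose and 1 fell, with a median of 0.36. Calls without 1 array were 6 higher and 0 to 1 lower, and those without the trend 5 and 0. The sixth riser was Nfyb (0.73), a subunit of NF-Y, and the gene that fell was the protease cathepsin S (Ctss, -0.23). The other NF-Y subunits of the list, Nfya (-0.30) and Nfyc (-0.03), were not called. Nor were Ciita (1.25), Rfx5 (-0.09), Rfxap (-0.01) and Rfxank (-0.14). The median was 0.57 without 6-week array 1.

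Class I genes did not move as one. RT1-A3 had 6337, 6493 and 5940.5 at 2 weeks and 2723, 2631 and 2653 at 6 weeks, a fall (-1.23 ± 0.05, adjusted p = 2.35e-07), and a second probe set of the symbol fell as well (-0.57, adjusted p = 0.00981). Another rose by 1.44 on the log2 scale, and the dimmest was not called (-0.55). RT1-CE5 had 515, 464 and 628 at 2 weeks and 1530.1, 1399.5 and 1236 at 6 weeks (1.38 ± 0.12, adjusted p = 5.77e-05), with 2 further probe sets higher by 5.22 and 3.75, the first of them near the background level at 2 weeks, where a difference is no measure of fold. RT1-N3, a further class I gene, had 196, 171 and 225 at 2 weeks and 1264, 1108 and 1159 at 6 weeks and stood at 232, 235 and 236 at 4 weeks (2.58 ± 0.12, adjusted p = 4.6e-07), and its second probe set was not called (0.39). Class I genes are numerous, similar in sequence and variable between rats, so their probe sets may read more than 1 gene, and differences between the animals of each group cannot be told apart from weeks of feeding. The immunoproteasome subunits rose together. Psmb9 had 2369.9, 2329 and 2200.5 at 2 weeks and 7032, 6732 and 6669.8 at 6 weeks (1.57 ± 0.05, adjusted p = 3.5e-08). Psmb10 had 1458, 1342 and 1314 at 2 weeks and 2625, 2997 and 2558 at 6 weeks (0.99 ± 0.07, adjusted p = 1.98e-05) and Psmb8 rose by 0.97. The peptide transporter chains Tap1 and Tap2 rose by 0.94 and 0.48, and the proteasome activators Psme1 and Psme2 by 0.38 and 0.61. Of 15 genes of class I presentation and the immunoproteasome, 9 rose and 1 fell, with a median of 0.48. With 1 array left out, fits called 8 higher and 1 lower, and without the trend 3 and 1.

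Among genes that interferon gamma induces, the chemokine Cxcl9 had the largest rise. Cxcl9, which attracts activated T cells through CXCR3, had 326, 373 and 269 at 2 weeks and 4925, 5059.8 and 4357 at 6 weeks, a 14.9-fold rise (3.90 ± 0.11, adjusted p = 1.42e-08). At 4 weeks it stood at 1055, 1128 and 1009, between the groups. Igtp, an immunity-related GTPase, had 2542, 2543 and 2908 at 2 weeks and 8904, 8679 and 9421 at 6 weeks (1.76 ± 0.06, adjusted p = 7.76e-08). Of its other probe sets 1 rose by 1.65, and 1 well above the background level was not called (0.12, adjusted p = 0.529). The guanylate binding protein Gbp2 had 880.3, 969 and 798 at 2 weeks and 2553, 2448 and 2514 at 6 weeks (1.51 ± 0.07, adjusted p = 9.02e-07). Cxcl10, a second CXCR3 ligand, had 218, 183 and 199 at 2 weeks and 474, 559 and 405 at 6 weeks (1.25 ± 0.15, adjusted p = 0.000609). The transcription factor Irf1, through which interferon gamma acts, rose by 1.07. Ifngr1, which encodes a chain of the receptor, fell by 0.44. In all, 8 of 17 genes rose and 1 fell, with a median of 0.26. Fits without 1 array called 7 to 8 higher and 1 lower, and the fit without the trend 5 and 0. Ifng itself, the ligand, was not called (log2 difference 0.64 ± 0.52, adjusted p = 0.604).

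Summed markers of T and NK cells were higher at 6 weeks, and their part in the results on antigen presentation was not tested. Their summed signal over 23 markers was 4202 to 4754 on the 2-week arrays and 7528 to 7976 on the 6-week arrays, and 10 rose, 0 fell and 13 were not called (median 0.78). The counts were 7 to 9 higher and 0 lower with 1 array omitted, and 3 and 0 without the trend. Chains of the T cell receptor complex were among them. Cd3g had 105, 167 and 161 at 2 weeks and 342, 399 and 337 at 6 weeks (1.34 ± 0.20, adjusted p = 0.00282), and Cd3e rose by 1.16. Cd3d had 16.4, 59.3 and 9.12 at 2 weeks and 249, 221 and 197 at 6 weeks, with 2 of the 3 arrays at 2 weeks under the background level, a rise of at least 4.12-fold (3.34 ± 0.59, adjusted p = 0.00772). A lower bound of this kind sets the mean of the bright group against the background level of each dim array, or the gene's own signal where that was higher. Cd2, an adhesion molecule of T and NK cells, had 16.033, 8.56 and 9.81 at 2 weeks and 124, 71.3 and 123 at 6 weeks, at least 2.06-fold higher (3.10 ± 0.54, adjusted p = 0.00698). Cd247, the zeta chain, had 115, 57.6 and 79.8 at 2 weeks and 192, 179 and 208 at 6 weeks (1.24 ± 0.29, adjusted p = 0.0315). The kinase Lck rose by 0.78, and the granzymes Gzma and Gzmk, proteases of cytotoxic granules, by 0.60 and 0.96. Ccl5, a chemokine made by T cells, had 1029, 1081 and 1111 at 2 weeks and 2407, 2497 and 2394 at 6 weeks (1.18 ± 0.06, adjusted p = 8.36e-07). It is 1 of the 23 markers, and a sizeable part of the rise in their sum is its own. It is counted among the cytokine genes as well. More cells of a type and more RNA per cell cannot be told apart in bulk tissue, here and in all cell marker results below. The call was lost for Cd247 without 2-week array 2 or 3 or 6-week array 1, 2 or 3 (adjusted p 0.0711 to 0.122).

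**Figure D3:**
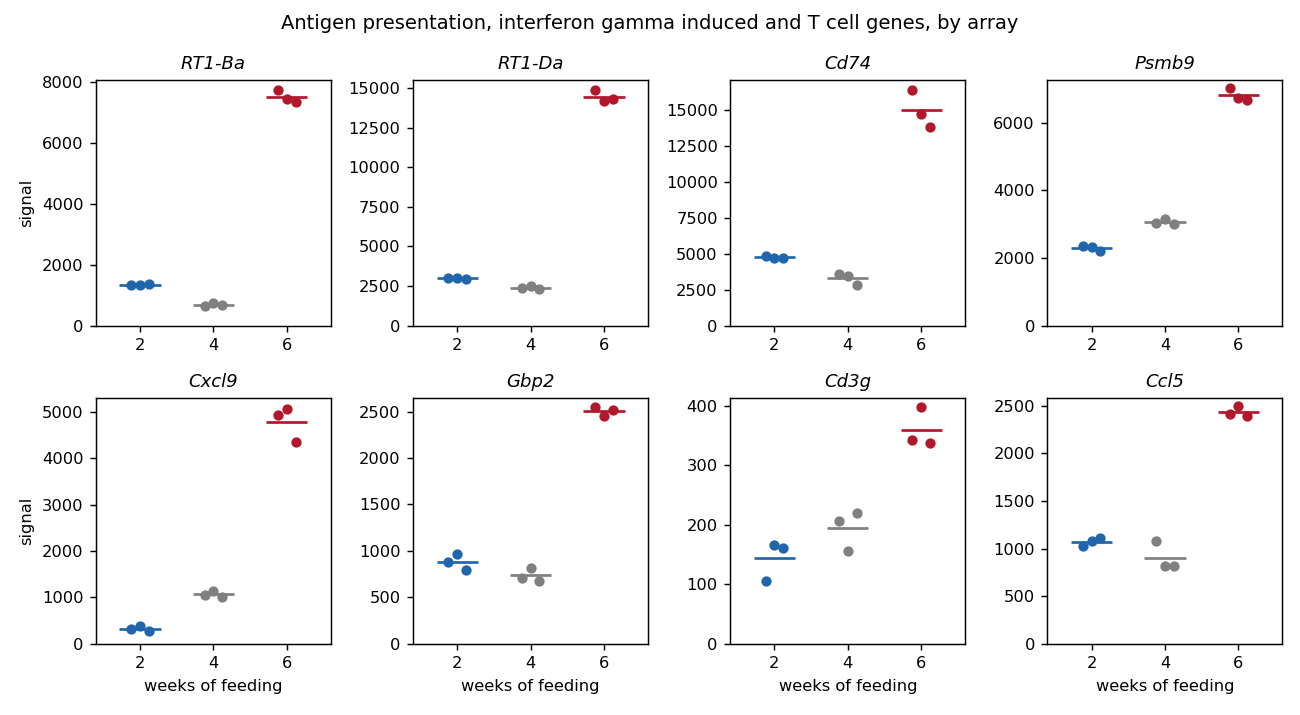
Signals (y axes, linear, from 0) of 8 genes on each array at 2, 4 and 6 weeks of feeding (x axes); points are arrays and lines the mean of 3. All 3 arrays at 6 weeks lie above all arrays at 2 weeks in each of the 8 genes, and RT1-Da stood at 14190 to 14898 against 2951 to 3022.

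Among antiviral genes of the type I interferon response, more fell than rose, and most were not called. Of 21 measured, 7 fell and 1 rose, with a median of -0.26. The fit without the trend called 1 higher and 2 lower, and fits without 1 array 1 to 2 and 3 to 5. Rsad2, the antiviral protein viperin, had 902, 836 and 853 at 2 weeks and 435, 365 and 380.2 at 6 weeks (-1.14 ± 0.09, adjusted p = 4.65e-05). Irf7, the factor that amplifies type I interferon production, had 2190.1, 2105 and 2206 at 2 weeks and 1171, 1072 and 1069 at 6 weeks (-0.97 ± 0.06, adjusted p = 5.67e-06). Oasl, of the oligoadenylate synthetase family, had 702, 519.6 and 564 at 2 weeks and 344, 384 and 319.9 at 6 weeks (-0.76 ± 0.13, adjusted p = 0.00634). The exception was Ifit1, which binds viral RNA, with 329, 384 and 382 at 2 weeks and 834, 804 and 854 at 6 weeks (1.19 ± 0.09, adjusted p = 3.31e-05). Antiviral genes of type I and genes of type II interferon thus had medians of opposite sign over the same 6 arrays.

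Other cytokine genes were split, with 3 of 26 higher and 5 lower (median 0.01). Omitting 1 array left 3 higher and 1 to 4 lower, and omitting the trend 1 and 0. Beside Ccl5, Il1b rose by 0.62 and the chemokine Cxcl16 by 0.52. Cxcl13, which attracts B cells, had 374, 366 and 428 at 2 weeks and 258, 186 and 192 at 6 weeks (-0.89 ± 0.16, adjusted p = 0.00795). Nfkb1, a subunit of NF-kappa B, had 1493, 1047 and 1305 at 2 weeks and 784, 712 and 906 at 6 weeks (-0.67 ± 0.13, adjusted p = 0.0117). Tgfb1, the fibrogenic growth factor, had 206, 231 and 250.044 at 2 weeks and 85.5, 132 and 114 at 6 weeks (-1.06 ± 0.22, adjusted p = 0.0197). Tnf, with 33.7, 42.2 and 53.8 at 2 weeks and 62.8, 86.5 and 74.0 at 6 weeks, was near the background level and was not called (log2 difference 0.78 ± 0.41, adjusted p = 0.377). Alternatives ended the call of Nfkb1 without 2-week array 1 or 6-week array 2 (adjusted p 0.0523 to 0.0555) and Tgfb1 without 2-week array 1, 2 or 3 or with all 12 arrays (adjusted p 0.0579 to 0.363).

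Transcripts of most enzymes of cholesterol synthesis were lower at 6 than at 2 weeks. Of 20 enzymes measured, 17 fell and 0 rose, with a median of -0.54, against 4.48% of all genes lower. The 3 not called were Mvk (-0.19), Lss (-0.16) and Sc5d (-0.13), at early, middle and late steps. Calls without 1 array were 0 higher and 16 to 17 lower, and those without the trend 0 and 7. At the start of the pathway, the thiolase Acat2 fell by 0.99 and Hmgcs1, which makes HMG-CoA, had 16087, 15869 and 16363 at 2 weeks and 7842, 8059.7 and 7332 at 6 weeks (-1.06 ± 0.05, adjusted p = 5.72e-07). Idi1, the isomerase of isoprenoid precursors, had 5503, 5479.5 and 5345 at 2 weeks and 2773, 2576 and 2777 at 6 weeks (-1.01 ± 0.05, adjusted p = 9.33e-07). Sqle, the squalene epoxidase that opens the sterol branch, had 1071, 1130.3 and 1130.2 at 2 weeks and 307, 355 and 353 at 6 weeks, a 3.28-fold fall (-1.72 ± 0.09, adjusted p = 1.28e-06). Past lanosterol, the methyl oxidase Msmo1 had 8029.6, 7498 and 7932 at 2 weeks and 3458, 3585 and 3536 at 6 weeks (-1.15 ± 0.05, adjusted p = 2.36e-07). Cyp51, Hsd17b7 and Dhcr7 fell by 0.84, 0.92 and 0.98. In each of the 4 genes given by array, the groups were apart, with the 6-week arrays below. At 4 weeks the median of the list was -0.72 relative to 2 weeks.

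Sterol sensing and transport genes fell less widely, 5 of 17 with a median of -0.22. With 1 array left out, fits called 0 higher and 3 to 6 lower, and without the trend 0 and 1. Insig1, which holds the sterol sensor Scap in the endoplasmic reticulum when sterols are plentiful, had 14732, 14872 and 14818 at 2 weeks and 8748, 8895 and 8747 at 6 weeks (-0.75 ± 0.04, adjusted p = 2.12e-06). Scap fell by 0.41. The transporters Abcg5 and Abcg8, which as a pair pump sterols into bile, were both lower. Abcg5 had 380.1, 300.4 and 359 at 2 weeks and 161, 128 and 144 at 6 weeks (-1.26 ± 0.17, adjusted p = 0.00134). Abcg8 had 95.5, 153 and 99.972 at 2 weeks and 23.9, 19.6 and 52.8 at 6 weeks, at least 2.22-fold lower (-1.92 ± 0.48, adjusted p = 0.0454). Abca1, which loads cholesterol onto HDL, had 1464, 1456 and 1324 at 2 weeks and 902, 984 and 992 at 6 weeks (-0.56 ± 0.07, adjusted p = 0.00097), while 2 further probe sets were not called (-0.39 and 0.04). Srebf1, which encodes the lipogenic SREBP-1, had 3745, 3785 and 3574 at 2 weeks and 3580.4, 3589 and 3597 at 6 weeks with overlapping groups and was not called (-0.04 ± 0.05, adjusted p = 0.714). Not called under an alternative were Abcg8 without 2-week array 1, 2 or 3 or 6-week array 1 or 2 or with median centring or the replicate block (adjusted p 0.054 to 0.192).

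In bile acid synthesis the hydroxylases Cyp7a1 and Cyp8b1 were lower. Cyp7a1, its rate-limiting hydroxylase, had 6500.5, 6765 and 5854 at 2 weeks and 2069.7, 2008 and 2213 at 6 weeks, a 3.04-fold fall (-1.60 ± 0.06, adjusted p = 1.81e-07). It was lower still at 4 weeks (1358, 1386 and 1265). Cyp8b1, the sterol 12-alpha-hydroxylase that directs synthesis to cholic acid, had 3977, 4047 and 3857 at 2 weeks and 2553, 2469 and 2353 at 6 weeks (-0.69 ± 0.05, adjusted p = 2.36e-05), but at 4 weeks it was above both groups (4672, 4749.8 and 4508). Of 22 genes 7 fell and 2 rose, with a median of -0.14. Fits without 1 array called 2 higher and 4 to 7 lower, and the fit without the trend 0 and 1. Abcc2, the canalicular exporter of conjugates, had 3087, 3077 and 2909.7 at 2 weeks and 1970.2, 1893 and 1697 at 6 weeks (-0.71 ± 0.06, adjusted p = 9.96e-05). The growth factor receptor Fgfr4, which relays the ileal signal that represses bile acid synthesis, fell by 0.45. The sinusoidal uptake transporter Slco1a1 rose, with 4572, 4862 and 4544 at 2 weeks and 7491, 7039 and 7143 at 6 weeks (0.63 ± 0.05, adjusted p = 3.14e-05). Hsd3b7, which follows Cyp7a1 in the pathway, rose by 0.56.

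Transcripts for several steps of fatty acid synthesis were lower, while that of the desaturase Scd was higher. Acly, which supplies cytosolic acetyl-CoA, had 9833, 9672 and 9529 at 2 weeks and 5767, 5975 and 6160.3 at 6 weeks (-0.70 ± 0.05, adjusted p = 8.28e-06). Fasn, the fatty acid synthase, had 5113, 5159.7 and 4721 at 2 weeks and 3343, 3661 and 3546 at 6 weeks (-0.51 ± 0.06, adjusted p = 0.000402). Acaca, the carboxylase before it, fell by 0.28. Elovl6, which extends palmitate to stearate, had 862, 839.7 and 898 at 2 weeks and 337, 388 and 369 at 6 weeks (-1.25 ± 0.09, adjusted p = 1.58e-05). Mlxipl, the glucose-responsive factor ChREBP, had 894, 924 and 914 at 2 weeks and 548, 649 and 515 at 6 weeks (-0.68 ± 0.09, adjusted p = 0.00175). Scd, which makes oleate from stearate, had 12335, 12184 and 11446 at 2 weeks and 19429, 16247 and 16236 at 6 weeks (0.52 ± 0.07, adjusted p = 0.00151) and stood at 17545, 17353 and 14918 at 4 weeks. The list held 9 genes that fell and 1 that rose of 22, with a median of -0.22. The counts were 1 to 2 higher and 5 to 8 lower with 1 array omitted, and 0 and 1 without the trend.

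Lipid droplet and uptake genes moved little. Of 21, 3 rose and 0 fell (median -0.01), a share of 14.3% against 8.12% of all genes. The fit without the trend called 0 higher and 0 lower, and fits without 1 array 2 to 3 and 0 to 1. G0s2, an inhibitor of the lipase ATGL, had 6159, 5899 and 6316 at 2 weeks and 8724, 9536 and 8897 at 6 weeks (0.56 ± 0.05, adjusted p = 9.96e-05). Pnpla2, which encodes that lipase, had 586, 563 and 608 at 2 weeks and 762, 765 and 744 at 6 weeks (0.37 ± 0.08, adjusted p = 0.0174). The fatty acid translocase Cd36 had 5296, 5478 and 5304 at 2 weeks and 6586, 6635 and 6507 at 6 weeks (0.30 ± 0.04, adjusted p = 0.00282). Plin2, the main coat protein of hepatocyte lipid droplets, had 5998, 6167 and 5971 at 2 weeks and 6252, 5659 and 5579 at 6 weeks and was not called (-0.05 ± 0.05, adjusted p = 0.687). Of 30 genes of fatty acid oxidation and other targets of the transcription factor PPAR alpha, 2 rose and 2 fell (median -0.02), a share of 13.3% against 8.12% of all genes. Omitting 1 array left 0 to 1 higher and 1 to 2 lower, and omitting the trend 0 and 0. The called genes were Acot2, a mitochondrial thioesterase (-0.41 ± 0.07, with 3 further probe sets at -0.01, -0.03 and -0.04 not called), Angptl4, an inhibitor of lipoprotein lipase (-0.38 ± 0.07), the pantetheinase Vnn1 (0.28 ± 0.06) and Ech1, a dienoyl-CoA isomerase (0.18 ± 0.05). Angptl4 stood at 5467, 5515 and 5391 at 4 weeks, above 2885, 3069 and 3019 at 2 weeks and 2050.1, 2486 and 2361 at 6 weeks. Cpt1a, the gate for long-chain fatty acids into mitochondria, had 2941, 2938 and 2914 at 2 weeks and 2681, 2949.6 and 2980.2 at 6 weeks and was not called (-0.03 ± 0.06, adjusted p = 0.836). Calls that an alternative ended were those of Pnpla2 without 2-week array 1 or 2 or 6-week array 1, 2 or 3 or with the replicate block (adjusted p 0.0501 to 0.0732), Angptl4 without 2-week array 2 or with median centring (adjusted p 0.0525 to 0.0538), Vnn1 without 2-week array 2 or 6-week array 3 (adjusted p 0.0668 to 0.0759) and Ech1 without any 1 array or with median centring or the replicate block (adjusted p 0.0818 to 0.153).

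Among genes of glucose metabolism and insulin response, Igfbp1, G6pc1, Pck1 and Irs2 were lower at 6 weeks, and most were not called. Igfbp1, a binding protein for insulin-like growth factors that fasting raises, had 5832, 5868 and 5548 at 2 weeks and 919.9, 1022 and 977 at 6 weeks, a 5.91-fold fall (-2.56 ± 0.06, adjusted p = 2.09e-09), with 2372, 2470.3 and 2213 at 4 weeks in between. G6pc1, which releases glucose from the hepatocyte, had 12341, 12128 and 11434 at 2 weeks and 7310.2, 6337 and 6692 at 6 weeks (-0.82 ± 0.06, adjusted p = 1.8e-05). Pck1, the gluconeogenic carboxykinase, had 29456, 29036 and 29550.4 at 2 weeks and 21890.4, 21606 and 22029.9 at 6 weeks (-0.43 ± 0.04, adjusted p = 0.000192). Irs2, an adaptor of the insulin receptor, had 392, 452 and 442 at 2 weeks and 299, 269 and 281 at 6 weeks (-0.60 ± 0.11, adjusted p = 0.0121). Of 24 genes of glucose metabolism 5 fell and 0 rose, with a median of -0.13. Calls without 1 array were 0 higher and 4 to 6 lower, and those without the trend 0 and 1. No source used here gives the fasting state at collection.

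In the growth hormone and IGF axis, 3 of 18 genes rose and 5 fell (median -0.17). With 1 array left out, fits called 1 to 2 higher and 4 to 7 lower, and without the trend 0 and 2. Beside Igfbp1, Igfbp2 had 789, 834 and 771 at 2 weeks and 183, 236 and 260.4 at 6 weeks (-1.83 ± 0.13, adjusted p = 1.87e-05). Igfbp3, the main carrier of IGF-1 in blood, fell by 0.75. The 2 feedback inhibitors of growth hormone signalling diverged. Socs2 had 205, 253 and 239 at 2 weeks and 444, 435 and 476 at 6 weeks (0.96 ± 0.12, adjusted p = 0.0012), whereas Cish had 332, 326 and 339.6 at 2 weeks and 168, 198 and 225 at 6 weeks (-0.76 ± 0.15, adjusted p = 0.0138). Both were far above either group at 4 weeks, at 979.6, 980.4 and 1085 for Socs2 and 1019, 961 and 887 for Cish. Among 28 genes of amino acid breakdown 3 rose and 4 fell (median -0.03). Fits without 1 array called 2 to 3 higher and 1 to 4 lower, and the fit without the trend 0 and 0. Sds, which deaminates serine, had 568, 675 and 579.8 at 2 weeks and 1057, 999 and 934 at 6 weeks (0.72 ± 0.09, adjusted p = 0.000917). The alanine aminotransferase Gpt had 1896, 1797 and 1781 at 2 weeks and 2756, 2601 and 2891 at 6 weeks (0.59 ± 0.06, adjusted p = 0.000177). Ddc, which decarboxylates aromatic amino acids, fell (-0.67 ± 0.06, adjusted p = 6.21e-05), as did the aspartate aminotransferase Got1 (-0.28 ± 0.06, adjusted p = 0.0152). Less settled calls were Irs2 without 2-week array 2 (adjusted p = 0.0639), Cish without 2-week array 1 or 2 (adjusted p 0.0536 to 0.0614) and Got1 without 2-week array 1 or 6-week array 2 or 3 or with median centring (adjusted p 0.061 to 0.0767).

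**Figure D4:**
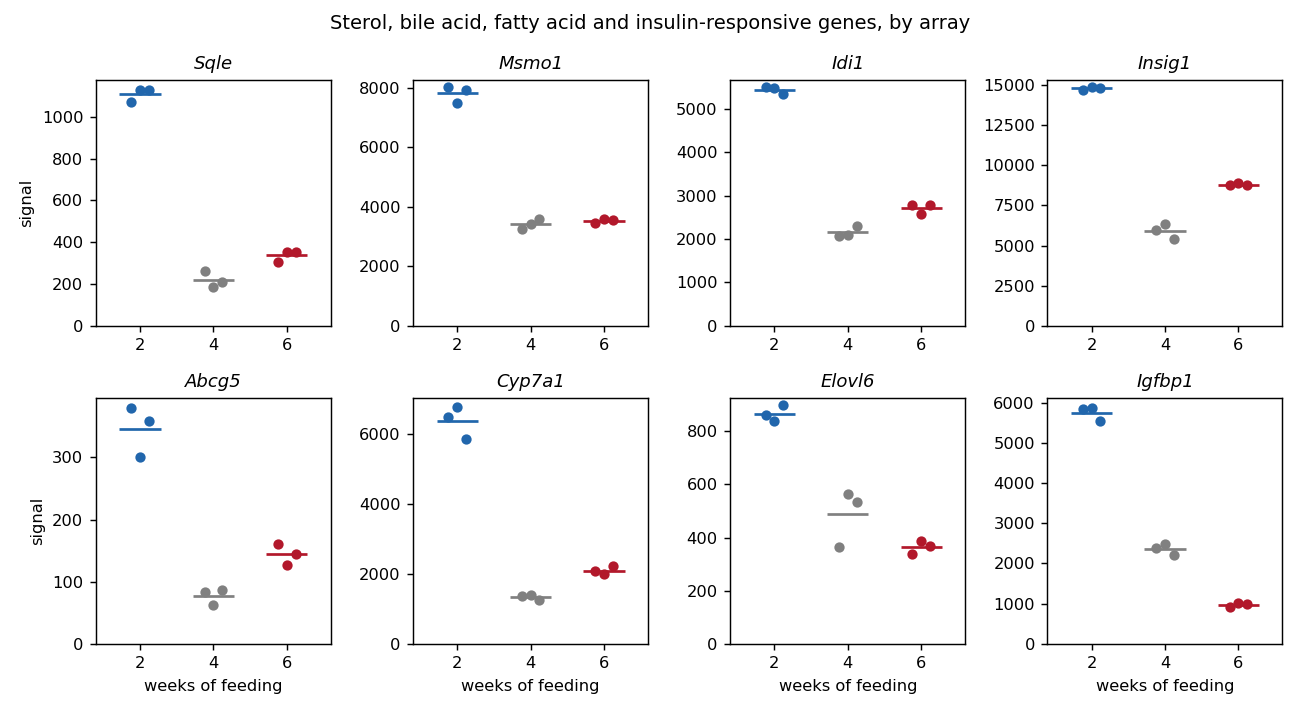
Signals (y axes, linear, from 0) of 8 genes of sterol, bile acid, fatty acid and insulin-responsive metabolism on each array at 2, 4 and 6 weeks (x axes); points are arrays and lines the mean of 3. All arrays at 6 weeks lie below all at 2 weeks, and for Sqle, Msmo1, Idi1, Insig1, Abcg5 and Cyp7a1 the 4-week mean is the lowest of the 3.

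Nearly all called matrix and stellate cell genes were lower at 6 weeks. Of 34 measured, 16 fell and 1 rose, with a median of -0.66, and their summed signal was 47957 to 50136 on the 2-week arrays and 36593 to 37920.2 on the 6-week arrays. The counts were 1 higher and 11 to 17 lower with 1 array omitted, and 1 and 3 without the trend. Col3a1, a fibrillar collagen chain, had 6061, 6275 and 5803 at 2 weeks and 2837, 2881 and 2880.3 at 6 weeks (-1.08 ± 0.05, adjusted p = 4.48e-07). Col1a2 had 582, 645 and 625 at 2 weeks and 287, 297 and 261 at 6 weeks (-1.13 ± 0.10, adjusted p = 9.96e-05). Col1a1, its partner in type I collagen, had 396, 301 and 272 at 2 weeks and 187, 148 and 189.7 at 6 weeks (-0.87 ± 0.18, adjusted p = 0.0198). Col6a1 had 526, 591 and 430.0 at 2 weeks and 291, 193 and 342 at 6 weeks (-0.93 ± 0.20, adjusted p = 0.0219). Pdgfra, a receptor of mesenchymal cells, fell by 0.67 and Lrat, which stores retinol as esters in stellate cells, by 0.69. Lox, the enzyme that cross-links collagen, was the exception, with 71.2, 85.0 and 77.8 at 2 weeks and 231, 183 and 199 at 6 weeks (1.37 ± 0.23, adjusted p = 0.00633), but at 4 weeks it reached 1869, 1884 and 1706, far above both groups. Lama2, a laminin chain of basement membranes, had 231, 291 and 237 at 2 weeks and 93.1, 62.3 and 71.4 at 6 weeks (-1.74 ± 0.24, adjusted p = 0.00175). The call ended for Col1a1 without 2-week array 1 or 2 or 6-week array 2 (adjusted p 0.0594 to 0.0994) and Col6a1 without 2-week array 1 or 2 (adjusted p 0.0879 to 0.0988).

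Some macrophage and neutrophil markers were lower too. The summed signal of 20 Kupffer cell and macrophage markers was 74108 to 78576 on the 2-week arrays and 65875 to 66079 on the 6-week arrays, and 8 fell and 1 rose (median -0.20). The fit without the trend called 0 higher and 1 lower, and fits without 1 array 1 and 6 to 9. Cd163, a scavenger receptor for hemoglobin on resident macrophages, had 966, 901 and 816 at 2 weeks and 411, 453 and 455 at 6 weeks (-1.02 ± 0.09, adjusted p = 9.01e-05). C1qa, a chain of the complement starter C1q, had 9007, 9285 and 9349 at 2 weeks and 6038, 5962 and 5229 at 6 weeks (-0.68 ± 0.06, adjusted p = 6.98e-05). The mannose receptor Mrc1 had 1833, 1839 and 1837 at 2 weeks and 1199.8, 1281 and 1283 at 6 weeks (-0.55 ± 0.06, adjusted p = 0.00025). Gpnmb, a glycoprotein of lipid-laden macrophages, moved the other way with 1120.2, 1008 and 1029.5 at 2 weeks and 1558, 1497 and 1367 at 6 weeks (0.48 ± 0.07, adjusted p = 0.00302). Of 11 neutrophil markers 3 fell and 0 rose (median -0.35), with a summed signal of 8972 to 9318 on the 2-week arrays and 5288 to 5521 on the 6-week arrays. Omitting 1 array left 0 higher and 3 lower, and omitting the trend 0 and 1. The median was -0.58 without 2-week array 1 and -0.04 without 2-week array 3. S100a8 and S100a9, the chains of calprotectin, both fell. S100a8 had 2529, 2356 and 2649 at 2 weeks and 1385, 1514 and 1238 at 6 weeks (-0.87 ± 0.08, adjusted p = 9.64e-05). S100a9 had 5371, 5282 and 5272 at 2 weeks and 3027, 2928 and 3026 at 6 weeks (-0.83 ± 0.05, adjusted p = 1.96e-06). Lcn2, an iron-sequestering protein of neutrophils and of injured hepatocytes, had 661, 636 and 641 at 2 weeks and 474, 379.6 and 427 at 6 weeks and stood far lower at 4 weeks, at 77.8, 98.4 and 103 (-0.60 ± 0.10, adjusted p = 0.00587).

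Of 17 endothelial markers 4 fell and 0 rose (median -0.31), with a summed signal of 18893 to 19394 on the 2-week arrays and 15306 to 15914 on the 6-week arrays. Calls without 1 array were 0 higher and 2 to 5 lower, and those without the trend 0 and 1. Stab2 and Lyve1, receptors for hyaluronan on sinusoidal endothelium, both fell. Stab2 had 1319, 1331 and 1248 at 2 weeks and 653, 655 and 642 at 6 weeks (-0.997 ± 0.07, adjusted p = 8.89e-06). Lyve1 had 5441, 5428 and 5195 at 2 weeks and 3593, 3850.3 and 3816 at 6 weeks (-0.51 ± 0.05, adjusted p = 0.000149). Plvap, the protein of endothelial diaphragms, had 719.7, 853 and 684 at 2 weeks and 548, 516 and 378 at 6 weeks (-0.66 ± 0.14, adjusted p = 0.0222). Kdr, the main VEGF receptor, fell (-0.32 ± 0.07, adjusted p = 0.0303). Of 11 red cell and platelet genes 6 fell and 0 rose, with a median of -0.77 and a summed signal of 73287 to 76868 on the 2-week arrays and 58860.0 to 63919 on the 6-week arrays. With 1 array left out, fits called 0 higher and 5 to 6 lower, and without the trend 0 and 0. Alas2, which starts heme synthesis in red cell precursors, had 1653, 1682 and 1538 at 2 weeks and 896, 1002 and 957 at 6 weeks (-0.77 ± 0.07, adjusted p = 8.02e-05). The hemoglobin chaperone Ahsp had 510.1, 440.5 and 539 at 2 weeks and 210.3, 249 and 158 at 6 weeks (-1.29 ± 0.17, adjusted p = 0.00137). Slc4a1, the band 3 anion exchanger, fell (-1.01 ± 0.12, adjusted p = 0.000757). So did the platelet chemokine Pf4 (-0.66 ± 0.10, adjusted p = 0.00397). These genes can mark blood or red cell precursors in the tissue, which were not told apart, and their part in the other results was not tested. Lost calls were those of Plvap without 2-week array 1 or 2 (adjusted p 0.0697 to 0.0984) and Kdr without 2-week array 1 or 2 or 6-week array 1 or 2 or with median centring or the replicate block (adjusted p 0.0598 to 0.132).

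Other cell types showed less. None of 9 B cell and plasma cell markers was called (median -0.08, and 0.12 without 6-week array 2), nor was any of 13 adipocyte markers (median 0.07) or of 17 pancreatic genes (median -0.13), of which 6 were under the background level on all 6 arrays. Of 16 cholangiocyte markers only Epcam was called, lower by 0.30 on the log2 scale, a share of 6.25% against 8.12% of all genes. Among 23 hepatocyte markers, Apoa1, the main protein of HDL, had 29833, 30143 and 27742 at 2 weeks and 18276, 15471 and 15739.7 at 6 weeks (-0.83 ± 0.07, adjusted p = 4.19e-05). Nr1i3, the receptor CAR, had 645, 583 and 631 at 2 weeks and 423, 335 and 433 at 6 weeks (-0.65 ± 0.12, adjusted p = 0.0082). Asgr1, the asialoglycoprotein receptor, rose (0.24 ± 0.05, adjusted p = 0.0173), and the other markers were not called. The share of hepatocyte markers called was 13.0%, against 8.12% of all genes. Fits without 1 array called 0 to 1 higher and 2 to 5 lower, and the fit without the trend 0 and 0. The call was lost for Epcam without 2-week array 1 or 2 or 6-week array 1, 2 or 3 or with the robust fit, a pseudocount of 64, quantile normalization, median centring or the replicate block (adjusted p 0.0552 to 0.183) and Asgr1 without 2-week array 2 or 6-week array 2 or with median centring (adjusted p 0.0541 to 0.0835).

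**Figure D5:**
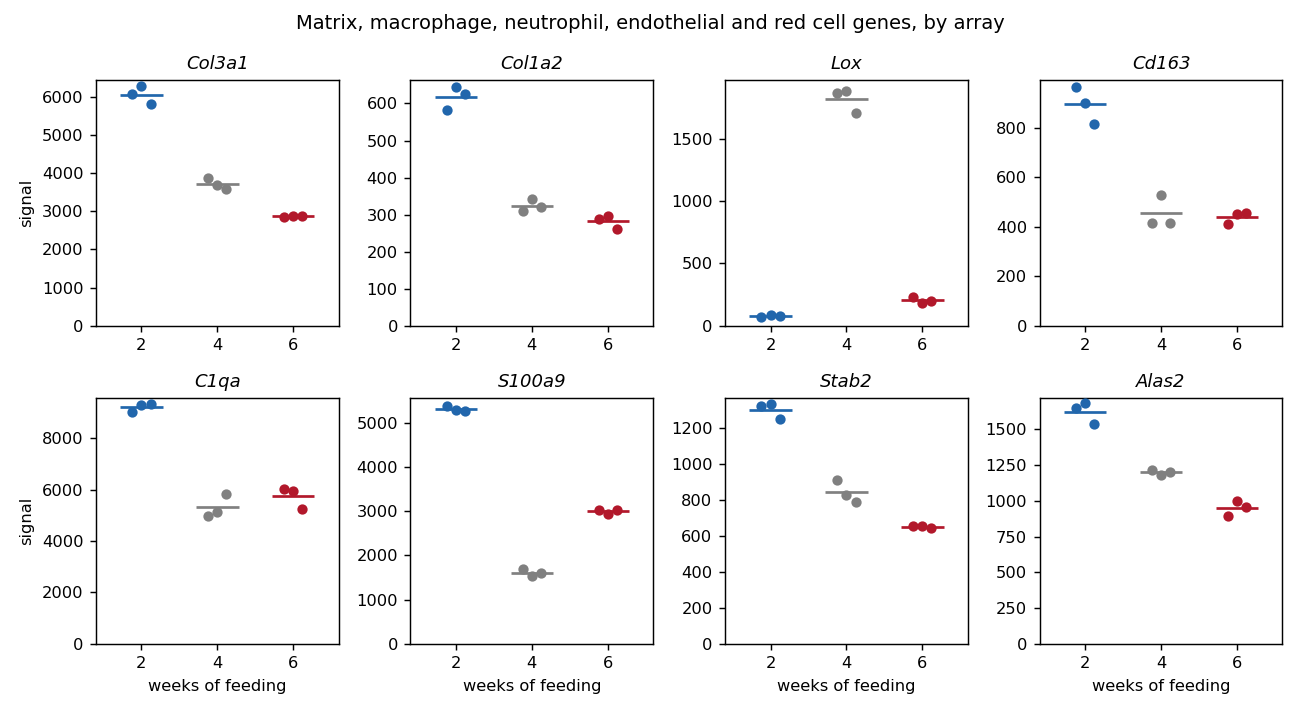
Signals (y axes, linear, from 0) of 8 genes of matrix, macrophages, neutrophils, sinusoidal endothelium and red cells on each array at 2, 4 and 6 weeks (x axes); points are arrays and lines the mean of 3. All but Lox were lower on every 6-week array than on every 2-week array, and Lox peaked at 1706 to 1884 at 4 weeks.

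Some protein folding genes were lower and some proteasome subunits higher at 6 weeks, but none of these calls was made without the trend. Of 24 genes of the endoplasmic reticulum stress response 8 fell and 0 rose (median -0.17). The counts were 0 to 1 higher and 6 to 9 lower with 1 array omitted, and 0 and 0 without the trend. The chaperone Hyou1 had 1546, 1401 and 1320.2 at 2 weeks and 855, 952 and 843 at 6 weeks (-0.69 ± 0.08, adjusted p = 0.000558). Herpud1, which serves degradation of misfolded proteins, had 3905, 3865 and 3759 at 2 weeks and 2559.9, 2704 and 2574 at 6 weeks (-0.56 ± 0.05, adjusted p = 7.71e-05). Creld2 and Sdf2l1, both induced with the other chaperones, fell (-0.56 ± 0.06, adjusted p = 0.000181 for Creld2 and -0.48 ± 0.05, adjusted p = 0.000209 for Sdf2l1). Of 16 heat shock genes 4 fell and 0 rose (median -0.15): the co-chaperone Stip1 (-0.43 ± 0.08, adjusted p = 0.00785), Hsph1 (-0.36 ± 0.06, adjusted p = 0.00481, with another probe set at -0.05 not called), the constitutive Hspa8 (-0.32 ± 0.06, adjusted p = 0.00964) and Hsp90aa1 (-0.19 ± 0.04, adjusted p = 0.032). The fit without the trend called 0 higher and 0 lower, and fits without 1 array 0 and 2 to 6. In the constitutive proteasome 7 of 29 subunits rose and 0 fell, by small steps (median 0.06); the changes of the leading subunits Psmb3, Psma7, Psmb4 and Psmb1 were 0.35 ± 0.07, 0.30 ± 0.06, 0.29 ± 0.05 and 0.26 ± 0.05. Omitting 1 array left 3 to 8 higher and 0 lower, and omitting the trend 0 and 0. Of 39 subunits of oxidative phosphorylation 4 rose and 0 fell (median 0.05), a share of 10.3% against 8.12% of all genes. Calls without 1 array were 2 to 4 higher and 0 lower, and those without the trend 0 and 0. Ndufa5, of complex I, had 880.2, 745 and 803 at 2 weeks and 1229, 1362 and 1305 at 6 weeks (0.68 ± 0.08, adjusted p = 0.00054). Uqcrfs1, Uqcrc2 and Ndufa4 rose by 0.32 ± 0.04, 0.24 ± 0.05 and 0.21 ± 0.04, while another probe set of Uqcrc2 was not called (0.01). Alternatives ended the call of Hspa8 without 2-week array 1 or 2 or 6-week array 2 or 3 (adjusted p 0.0504 to 0.0577), Hsp90aa1 without 2-week array 1 or 2 or 6-week array 2 or 3 or with median centring or the replicate block (adjusted p 0.0776 to 0.227), Psma7 without 2-week array 1 or 6-week array 2 (adjusted p 0.0523 to 0.0611), Uqcrc2 without 2-week array 1 or 2 or 6-week array 2 or 3 or with median centring or the replicate block (adjusted p 0.054 to 0.112) and Ndufa4 without 2-week array 1 or 2 or 6-week array 2 or 3 or with median centring (adjusted p 0.0514 to 0.108).

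The gene with the largest fall among characterised genes was Egr1, an immediate early transcription factor that responds to growth factors within minutes. Its signals were 3005, 3143 and 3394 at 2 weeks and 180.2, 213 and 240.4 at 6 weeks, a 15.1-fold difference (-3.91 ± 0.10, adjusted p = 9.41e-09), with 684, 635 and 616 at 4 weeks. Of 25 immediate early genes, Egr1 among them, 4 fell and 2 rose (median -0.15). With 1 array left out, fits called 2 to 3 higher and 2 to 4 lower, and without the trend 0 and 1. Myc, the growth regulator, had 356, 328 and 334 at 2 weeks and 193, 228 and 192 at 6 weeks (-0.73 ± 0.14, adjusted p = 0.0105). Klf2, an endothelial factor, fell (-0.42 ± 0.08, adjusted p = 0.0093), but its dimmer probe sets were not called (-0.18, 0.13, -0.23 and 0.06). The MAP kinase phosphatase Dusp6 rose (0.43 ± 0.06, adjusted p = 0.00178). Among 18 circadian clock genes 4 fell and 0 rose (median -0.15). Fits without 1 array called 0 to 1 higher and 3 to 4 lower, and the fit without the trend 0 and 1. Per1, a repressor of the clock, had 166, 253 and 344 at 2 weeks and 54.0, 77.3 and 49.7 at 6 weeks, at least 4.06-fold lower (-2.02 ± 0.32, adjusted p = 0.00426). Per2 had 998, 928 and 914 at 2 weeks and 553, 645 and 743 at 6 weeks (-0.56 ± 0.10, adjusted p = 0.011). Noct, a rhythmic deadenylase family member, had 348, 426 and 387 at 2 weeks and 138, 138 and 175 at 6 weeks (-1.36 ± 0.16, adjusted p = 0.000592). Npas2, a partner of Bmal1, had 467, 566 and 555 at 2 weeks and 301, 338 and 263 at 6 weeks (-0.82 ± 0.13, adjusted p = 0.00404). Nr1d1, the repressor REV-ERB alpha, lay near background with 66.6, 53.01 and 62.7 at 2 weeks and 44.2, 53.8 and 57.4 at 6 weeks and was not called (-0.23 ± 0.40, adjusted p = 0.837). No source used here gives the hour of collection, and its part in these differences was not tested. Not called under an alternative were Myc without 2-week array 1 (adjusted p = 0.0602), Klf2 without 2-week array 2 (adjusted p = 0.0505) and Per2 without 2-week array 1 (adjusted p = 0.0607).

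Of 26 genes of cytochromes P450 and of the aryl hydrocarbon receptor and related receptors, 4 were higher and 2 lower (median -0.04). The 2 lower were the receptors Ahr and Nr1i3, and no P450 gene of the list was called lower. The counts were 3 to 4 higher and 2 lower with 1 array omitted, and 2 and 0 without the trend. Cyp1a1, the classic target of the aryl hydrocarbon receptor, had 191, 251 and 257 at 2 weeks and 729, 814 and 759 at 6 weeks (1.73 ± 0.13, adjusted p = 2.28e-05), yet at 4 weeks it was at or under 10.5, well under background. Ahr, the receptor itself, had 356, 402 and 374 at 2 weeks and 209.7, 232 and 239 at 6 weeks (-0.73 ± 0.13, adjusted p = 0.00692). Cyp3a9 had 3259.8, 3407 and 3365 at 2 weeks and 10983, 10131 and 10959 at 6 weeks (1.68 ± 0.05, adjusted p = 1.98e-08). Transcripts that differ between male and female rat liver moved both ways, 7 of 23 up and 4 down (median -0.03). The fit without the trend called 3 higher and 2 lower, and fits without 1 array 6 and 3 to 4. Cyp2c12, a P450 typical of female rats, had 419.9, 427 and 538 at 2 weeks and 1597, 1831 and 1593 at 6 weeks (1.86 ± 0.10, adjusted p = 2.39e-06). Mup5, of the major urinary proteins, had 245, 195 and 383 at 2 weeks and 964, 571 and 952 at 6 weeks (1.61 ± 0.25, adjusted p = 0.00391). Akr1b7, an aldo-keto reductase, had 1338, 1472 and 1470.2 at 2 weeks and 145, 197 and 185 at 6 weeks, an 8.13-fold fall (-3.02 ± 0.12, adjusted p = 1.81e-07). Dhrs7, a short-chain dehydrogenase, had 2474, 2559.8 and 2532 at 2 weeks and 5922, 6082 and 5995 at 6 weeks (1.25 ± 0.05, adjusted p = 8.67e-08), although another probe set of this symbol fell by 0.38.

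Hamp, which encodes the iron hormone hepcidin, had 6919, 6719 and 6098 at 2 weeks and 17772, 16074 and 17219 at 6 weeks, a 2.59-fold rise (1.37 ± 0.06, adjusted p = 3.63e-07). Tfrc, the transferrin receptor, had 7814, 8164 and 7176 at 2 weeks and 4106, 4304 and 4241 at 6 weeks (-0.87 ± 0.06, adjusted p = 6.7e-06). Hmox1, which breaks down heme, had 1357, 1465 and 1219.9 at 2 weeks and 823, 873 and 763 at 6 weeks (-0.71 ± 0.08, adjusted p = 0.000613). The zinc importer Slc39a4 rose (0.56 ± 0.07, adjusted p = 0.000901). In that list of metallothionein, iron and heme genes 4 of 26 rose and 5 fell (median -0.09). Omitting 1 array left 2 to 3 higher and 4 to 5 lower, and omitting the trend 1 and 1. Among 24 antioxidant genes 5 rose and 3 fell (median 0.07). Calls without 1 array were 2 to 4 higher and 2 to 3 lower, and those without the trend 0 and 0. The aflatoxin aldehyde reductase Akr7a3 had 2400.1, 2001 and 1820.3 at 2 weeks and 3454, 3461 and 3296 at 6 weeks (0.72 ± 0.09, adjusted p = 0.000742). The glutathione reductase Gsr had 362, 479 and 394 at 2 weeks and 641, 668 and 663 at 6 weeks (0.68 ± 0.11, adjusted p = 0.00513). The peroxidase Gpx2 fell (-0.66 ± 0.14, adjusted p = 0.0227). Calls that an alternative ended were those of Gpx2 without 2-week array 1 or 2 or 6-week array 1 or 2 or with the replicate block (adjusted p 0.0576 to 0.106).

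Plasma protein genes changed little as groups. Among 24 acute phase genes 2 rose, Hamp and the interleukin 1 receptor Il1r1 (0.56 ± 0.14), and 3 fell (median -0.06). With 1 array left out, fits called 1 to 2 higher and 3 to 4 lower, and without the trend 1 and 1. A2m, the macroglobulin that is a leading acute phase protein of the rat, had 1539, 1527 and 1548 at 2 weeks and 667, 667 and 629 at 6 weeks (-1.23 ± 0.06, adjusted p = 1.28e-06). Of 21 complement and coagulation genes 1 rose and 3 fell (median -0.05). C2 rose (0.29 ± 0.05), and Masp1 (-0.37 ± 0.07, with 2 further probe sets not called), prothrombin (F2, -0.24 ± 0.05) and C5 (-0.23 ± 0.04) fell. Fits without 1 array called 1 higher and 1 to 4 lower, and the fit without the trend 0 and 0. Of 33 replication and mitosis genes 3 fell and 0 rose (median -0.19): Rrm2, a ribonucleotide reductase subunit, had 1132, 1098 and 1099 at 2 weeks and 702, 715 and 687 at 6 weeks (-0.66 ± 0.07, adjusted p = 0.000185), beside the cyclin Ccnb2 (-0.74 ± 0.17) and the phosphatase Cdkn3 (-0.90 ± 0.20). The share called was 9.09%, against 8.12% of all genes. The counts were 0 higher and 1 to 2 lower with 1 array omitted, and 0 and 0 without the trend. Of 17 p53 targets 2 rose and 4 fell (median -0.04). The fit without the trend called 0 higher and 0 lower, and fits without 1 array 0 to 2 and 2 to 3. The stress-responsive sestrins Sesn2 and Sesn1 fell (-0.64 ± 0.09, adjusted p = 0.00181 for Sesn2 and -0.54 ± 0.09, adjusted p = 0.00419 for Sesn1), as did the cell cycle inhibitor Cdkn1a (-0.61 ± 0.14, adjusted p = 0.0298). The cyclin Ccng1 rose (0.37 ± 0.09, adjusted p = 0.0445). Less settled calls were Il1r1 without 2-week array 1 or 2 or 6-week array 1, 2 or 3 or with the robust fit, a pseudocount of 16 or 64 or the replicate block (adjusted p 0.0533 to 0.167), Masp1 without 2-week array 2 (adjusted p = 0.0509), F2 without 2-week array 1 or 2 or 6-week array 2 or 3 or with median centring (adjusted p 0.105 to 0.135), C5 without 2-week array 1 or with median centring (adjusted p 0.05 to 0.109), Ccnb2 without any 1 array or with a pseudocount of 64, median centring or the replicate block (adjusted p 0.0512 to 0.156), Cdkn3 without 2-week array 1, 2 or 3 or 6-week array 1 or 3 or with the replicate block (adjusted p 0.058 to 0.104), Cdkn1a without 2-week array 1, 2 or 3 or 6-week array 1 or 3 (adjusted p 0.051 to 0.115) and Ccng1 without 2-week array 1 or 2 or 6-week array 1, 2 or 3 or with all 12 arrays, the robust fit, a pseudocount of 64, median centring or the replicate block (adjusted p 0.0511 to 0.164).

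Several of the largest rises lay outside these lists. Gpm6a, a membrane glycoprotein best known from neurons, had 26.7, 42.1 and 37.1 at 2 weeks and 442, 479.6 and 527 at 6 weeks, at least 9.59-fold higher (3.76 ± 0.25, adjusted p = 8.89e-06). It stood between the groups at 4 weeks (124, 142 and 173). Nudt11, which hydrolyses inositol pyrophosphates, had 18.9, 14.7 and 35.6 at 2 weeks and 296, 294 and 308 at 6 weeks, at least 5.96-fold higher (3.73 ± 0.38, adjusted p = 0.000215). Already at 4 weeks it had reached 313, 273 and 341. LOC686634, a hypothetical protein in the files that was picked out after its values were seen, had the smallest p of all genes, with 2462, 2365 and 2491 at 2 weeks and 33222, 31582 and 32002 at 6 weeks (3.73 ± 0.05, adjusted p = 2.13e-11). Its 4-week values of 12279.9, 11411 and 11955 lay in between. The other named risers were dim at 2 weeks and had lower bounds of 1.12-fold to 1.80-fold: Greb1, a gene that estrogen induces in human cells (2.90 ± 0.56, adjusted p = 0.0129), the tissue kallikrein Klk1 (2.73 ± 0.63, adjusted p = 0.0306), Obscnl (2.59 ± 0.59, adjusted p = 0.0301), the desmosomal plakophilin Pkp1 (2.50 ± 0.58, adjusted p = 0.0312), the retroviral restriction factor Apobec3 (2.36 ± 0.58, adjusted p = 0.0405) and Agap2, which activates the GTPase of ARF proteins (2.27 ± 0.54, adjusted p = 0.0364). The call ended for Greb1 without 6-week array 1 or 3 or with all 12 arrays (adjusted p 0.052 to 0.0676), Klk1 without 2-week array 1 or 2 or 6-week array 1, 2 or 3 or with the replicate block (adjusted p 0.0537 to 0.0971), Obscnl without any 1 array or with all 12 arrays or the replicate block (adjusted p 0.0505 to 0.104), Pkp1 without any 1 array or with all 12 arrays or the replicate block (adjusted p 0.0577 to 0.125), Apobec3 without any 1 array or with the robust fit or the replicate block (adjusted p 0.0547 to 0.119) and Agap2 without 2-week array 1 or 2 or 6-week array 1, 2 or 3 (adjusted p 0.0833 to 0.153).

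Large falls outside the lists included 2 enzymes of eicosanoid synthesis. Ptgis, the prostacyclin synthase, had 370.4, 439 and 397 at 2 weeks and 24.6, 70.2 and 31.0 at 6 weeks, at least 6.90-fold lower (-3.37 ± 0.36, adjusted p = 0.00031). Alox15, a lipoxygenase, had 375, 311 and 374 at 2 weeks and 56.0, 79.2 and 92.8 at 6 weeks (-2.23 ± 0.23, adjusted p = 0.000251) and stood at 243, 276 and 346 at 4 weeks. Fam111a, a protease that restricts viral replication in human cells, had 610.4, 684 and 606 at 2 weeks and 107, 90.4 and 59.5 at 6 weeks (-2.91 ± 0.21, adjusted p = 1.8e-05). RatNP-3b, a defensin of rat neutrophils, had 484, 574 and 519 at 2 weeks and 99.8, 199 and 139.9 at 6 weeks (-1.89 ± 0.22, adjusted p = 0.000555). Mcpt2, a protease of mucosal mast cells, had 241, 224 and 171 at 2 weeks and 85.8, 29.5 and 12.0 at 6 weeks, at least 3.58-fold lower (-2.69 ± 0.58, adjusted p = 0.0232). Pspn, a neurotrophic factor of the GDNF family, had 209.8, 192 and 319 at 2 weeks and 36.1, 72.7 and 35.6 at 6 weeks, at least 3.99-fold lower (-2.34 ± 0.36, adjusted p = 0.00351). The bicarbonate cotransporter Slc4a4 had 219.8, 197 and 204 at 2 weeks and 65.1, 95.7 and 36.1 at 6 weeks, at least 3.03-fold lower (-1.75 ± 0.35, adjusted p = 0.0147). Abp10, an annexin V-binding protein, was close to background in both groups, with a lower bound of 1.02-fold (-2.69 ± 0.58, adjusted p = 0.0232). Lost calls were those of RatNP-3b with all 12 arrays (adjusted p = 0.0672), Mcpt2 without 2-week array 1, 2 or 3 or 6-week array 2 (adjusted p 0.0578 to 0.106), Slc4a4 without 2-week array 1, 2 or 3 (adjusted p 0.0535 to 0.0772) and Abp10 without any 1 array or with all 12 arrays or the replicate block (adjusted p 0.0521 to 0.0886).

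The 4-week arrays, which the test did not use, lay between the groups for 1010 of the 1685 called probe sets. Called probe sets were chosen by the gap between the outer means, and the share among all probe sets was not counted. These counts therefore do not show a gradual course. Of the 769 called higher, 442 had their 4-week mean between the others, 169 had it below the 2-week mean, as the class II genes did, and 158 above the 6-week mean. Of the 916 called lower, 568 lay between, 224 had a 4-week mean below that of 6 weeks, as Sqle and Cyp7a1 did, and 124 above that of 2 weeks. Over all probe sets above background the arrays at 4 weeks resembled neither neighbour more than these resembled each other: the mean correlation was 0.955 between 2 and 4 weeks, 0.956 between 4 and 6 weeks and 0.960 between 2 and 6 weeks.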

How the data were processed

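Total RNA of 12 rat liver samples was measured on 1 array each, and the 6 arrays of the 2-week and 6-week groups were compared. Each array's deposited column holds 1 linear signal intensity per probe set, and the submitters' processing notes name GCOS 2.0. As the values show, the authors had scaled every array to the same trimmed mean. A sheet that repeats these deposited intensities differs by at most 0.1. Its 54 columns of log2 ratios and linear ratios that the authors deposited, fed arrays against 0h arrays, were not used.

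Intensities became log2(signal + 1), with a pseudocount that is small beside the background level of 45.5 to 54.0. Log2 differences of dim genes are thus no measure of fold and can be too large. That of Klk1, for example, ranged from 0.81 to 3.20 over the alternatives. After leaving out 57 controls, 31042 probe sets of the 6 arrays entered lmFit and eBayes (trend) of limma 3.58.1, run in R 4.3.3, with a mean per group and no block. P-values were adjusted with Benjamini-Hochberg over all probe sets. The number of arrays limits the precision. The fit was tested on simulated data. Their spread followed the mean signal, as the fit itself assumes, so the variance trend could not be checked in this way. Changes were placed only in probe sets above the 30th percentile of mean signal. In these data the fit recovered 20 of 65 changes of 1.5-fold, 42 of 70 of 2-fold and 48 of 65 of 4-fold. Of its 120 calls, 10 were false.

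Symbols of the deposited sheet were updated through RefSeq's gene table (GRCr8): 15130 probe sets by current symbol, 3201 by older symbol and 35 by accession, with 1492 kept as written. No symbol was given to 11121, several to 23, and a conflict between symbol and accession left 40 unnamed. The brightest probe set over the 6 arrays stands for a gene.

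The comparison, the 39 lists and the motifs were chosen with earlier results of these data known. Named genes are the 15 largest rises and 15 largest falls among called genes with a characterised symbol, groups apart and a signal above the 30th percentile, up to 4 called genes of each list with the largest change, and 21 benchmark genes, of which Cyp4a1 lay only on a probe set naming several genes. Alternatives changed the prior, pseudocount, filter, normalization, samples and block, and left out each array in turn. Some genes that the rule or the lists hold are not reported here.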

Additional observations from a re-analysis of the deposited data

How the results depend on the processing

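The counts of called probe sets depended most on the variance trend: without it 86 were higher and 75 lower, against 769 and 916, and 151 were shared. Median centring, which moved the arrays by their median log2 signal, gave 609 higher and 600 lower, or 50.4% higher against 45.6%. Leaving out 1 array gave 452 to 655 higher and 507 to 794 lower. The counts were 476 higher and 507 lower without 2-week array 1, and 484 and 556 without 2-week array 2. Only the higher count moved by over 1.5 times without 6-week array 2 (452) or 6-week array 3 (470). The replicate block gave 576 higher and 730 lower, although replicate numbers did not pair the arrays: deviations of same-numbered arrays correlated at -0.04, -0.01 and -0.02. The remaining settings (all 12 arrays, the robust fit, pseudocounts of 16 and 64, filters at the 30th and 50th percentile, quantile normalization, 1 probe set per gene and the deposited sheet) kept both counts within 1.5 times. The causes were not tested. Of 154 called named genes, 47 kept the call under all alternatives run, 106 lost it without the trend, 43 in at least 1 fit that left out an array, 14 with median centring, 17 with the replicate block and 7 with all 12 arrays. Cpt1a, not called, ranged from -0.060 to 0.017 with 1 array left out and changed sign without 6-week array 1. The difference of the 3′ to 5′ ratio was -0.157 to -0.120 for GAPDH and -0.051 to 0.064 for actin with 1 array left out. Of 702 list medians recomputed, 11 moved by more than the spread between arrays, among them class II (0.73 with the filter at the 30th percentile), interferon gamma induced genes (0.58 at the 50th) and T and NK markers (0.52 with a pseudocount of 64).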
